A study of Mus musculus with 6 samples.

Results

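The 8 mouse E2F transcription factor genes, E2f1 to E2f8, were examined in p53 ChIP-seq peak lists from spleen. They were chosen by name, as 8 of the 22380 protein-coding genes of the GENCODE vM1 annotation of mm9, and each was searched over its gene body and 10 kb on both sides. ChIP-seq sequences the DNA that an antibody recovers from cross-linked chromatin, here the CM5 antibody against p53, and a peak is a stretch where such fragments accumulate. The lists came from C57/Bl6 mice. B cells mock and B cells IR were splenic cells retained on B220 magnetic beads from Trp53+/+ animals of 8 weeks, left untreated (mock) or taken 4 h after 7 Gy of ionizing radiation to the whole body (IR). The cells of the same organ left after that depletion, a T cell-enriched mixture per the study, also from Trp53+/+ animals of 8 weeks, gave the lists named non-B cells mock and, after the same dose and time, non-B cells IR. The fifth list came from total spleen of irradiated Trp53-/- mice, whose age the labels do not give, and measured what the antibody recovers without its target. Each group was a single library from chromatin pooled over animals, so the spread between replicates is unknown and no test was made.

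E2F proteins bind DNA as dimers with DP partners and control the genes of the G1 to S phase transition. E2f1, E2f2 and E2f3 are activators that the retinoblastoma protein holds inactive in resting cells, E2f4 and E2f5 are repressors that act through the pocket proteins Rbl1 and Rbl2, E2f6 works with Polycomb-type complexes, and E2f7 and E2f8 are atypical repressors that bind without a DP partner. p53, which is stabilised after DNA damage, induces the CDK inhibitor Cdkn1a and thereby keeps the pocket proteins bound to E2Fs.

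After IR, 5 of the 8 E2f genes carried at least 1 p53 peak in B cells and 4 of the 8 in non-B cells, and no E2f gene carried a peak in either mock list or in the Trp53-/- list. E2f2, E2f3, E2f4 and E2f5 had peaks in both IR lists, E2f1 had a peak in B cells IR alone, and E2f6, E2f7 and E2f8 had none. The 62.5% of E2f genes with a peak in B cells IR stood beside 53.4% of all protein-coding genes under the same rule, and the 50% in non-B cells IR beside 51.8%, so that the counts lay close to those of genes at large. In the B cells mock, non-B cells mock and Trp53-/- lists, the share of all protein-coding genes with a peak was 4.45, 2.27 and 0.125%, and most genes lacked a peak there as the E2f genes did. A peak in both IR lists was found for 4 of 8 E2f genes (50%) and for 49.3% of all genes, and a peak in neither for 3 of 8 (37.5%) and for 44.1%. These populations are mixtures, and weak binding in most cells cannot be told apart from strong binding in a few. Peak lists do not measure expression, so the labelled cell types could not be checked against their markers.

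The 5 lists differed in ways that bear on such counts. The mock lists held 1413 peaks (B cells) and 712 (non-B cells), the wild-type IR lists 24507 and 21400, and the Trp53-/- list 83. The narrowest peak was 53 to 55 bp wide in the mock and Trp53-/- lists and 174 to 175 bp in both wild-type IR lists. The part of depth and of peak calling in the mock, IR and Trp53-/- counts was not tested.

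The peak value used below is the number that the authors deposited for each peak. It was taken to be a −log10 p-value, which the lists do not state. Such a value depends on library depth, so it was read within a list alone, as a rank from the top (tied peaks share their mean rank) and as a percentile, the share of the list with a lower value. The 10 E2f peaks of B cells IR lay at a median percentile of 43.8, with 7 below the middle of the list and 2 at the 80th percentile or above. The 8 E2f peaks of non-B cells IR lay at a median percentile of 40.9, with 5 below the middle and 2 at the 80th percentile or above. Most E2f peaks were thus of ordinary or low rank, and the high-ranking ones were in the windows of E2f3 and E2f4. The high-ranking peak of the E2f4 window in B cells IR (percentile 80.6) lay at the start of the neighbouring gene 4931428F04Rik.

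**Figure D1:**
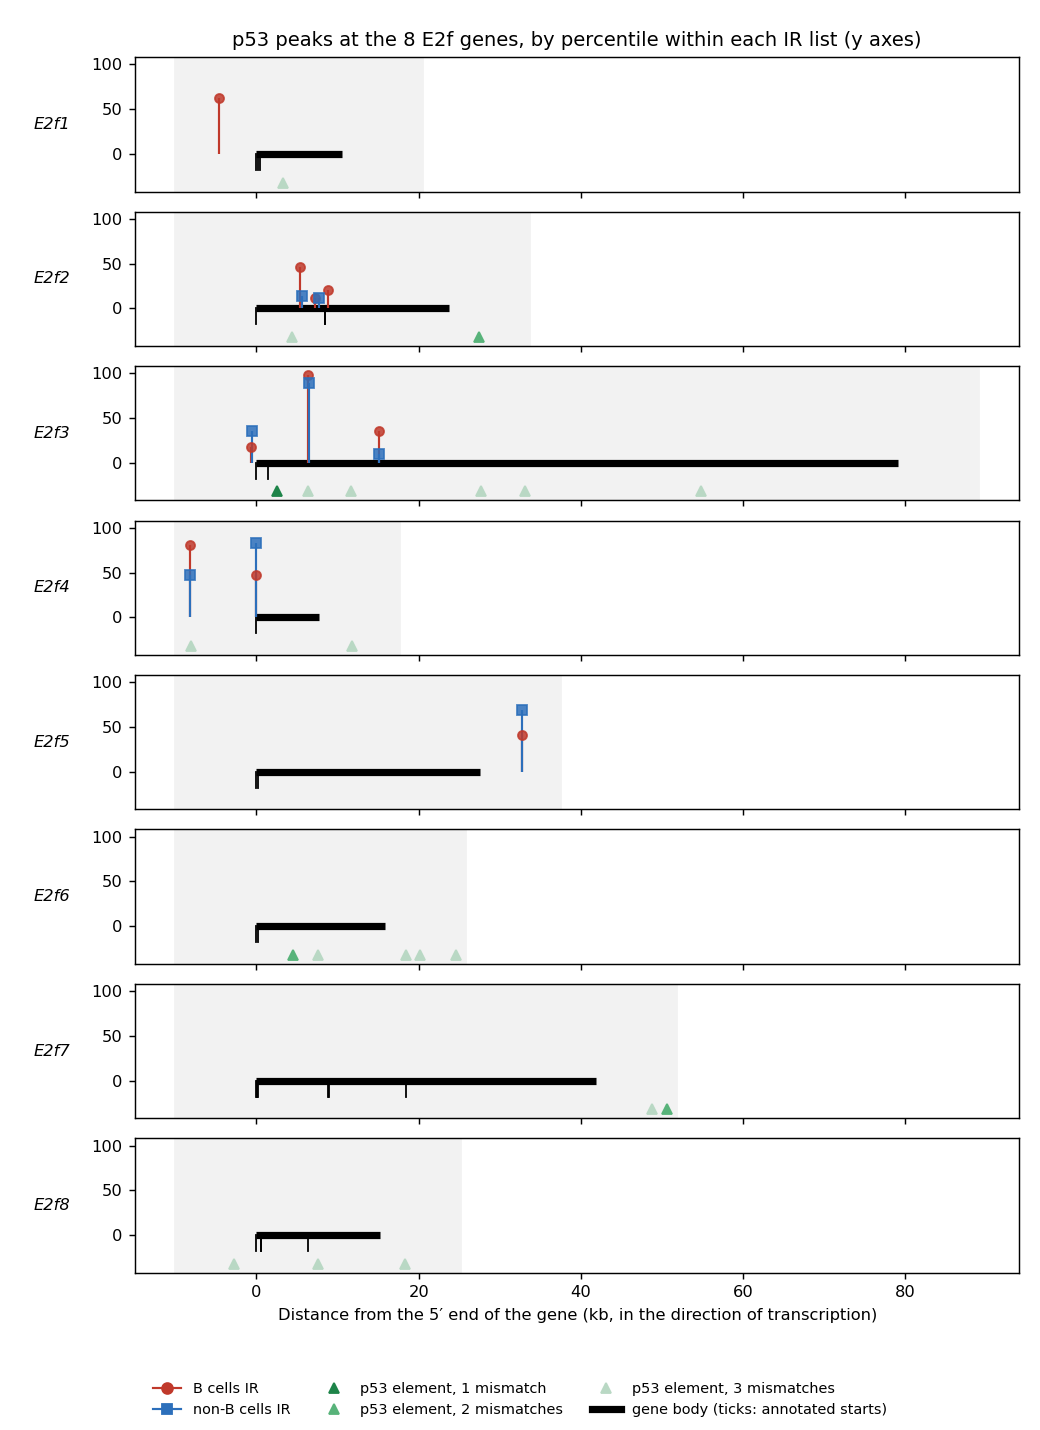
Position of each p53 peak in the windows of the 8 E2f genes. The x axis gives the distance from the 5′ end of the gene in kb, in the direction of transcription; the y axes give the percentile of the peak within its IR list; black bars are gene bodies, ticks below them annotated starts, grey shading the searched window, and triangles unsplit p53 elements by their number of mismatches. E2f3 reaches percentiles of 97.7 and 89.5 inside the gene, 3 genes have no peak, and the element with 1 mismatch in E2f3 lies under none.

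Among the activators, E2f1 (chr2:154385143-154395628, minus strand, mm9) had a single peak, in B cells IR. The peak, chr2:154400011-154400405, lay 4.58 kb upstream of the gene, in intergenic DNA for which the start of E2f1 was the nearest. Its value was 24.96 and its rank 9313.5 of 24507 (percentile 62.0). No peak of non-B cells IR lay in the E2f1 window, and the nearest in that list was 33.8 kb upstream at the start of Pxmp4, with a value of 30.98. A peak at the Pxmp4 start was listed in B cells IR as well, 33.7 kb from E2f1, with a value of 28.59, and the non-B cells mock list held one there with a value of 5.95.

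E2f2 (chr4:135728309-135751972, plus strand) had peaks of ordinary or low rank by value inside the gene in both IR lists and none at its 5′ end. In B cells IR, the widest was chr4:135733228-135734216, 989 bp in an intron 5.41 kb after the 5′ end, with a value of 18.36 and a percentile of 46.6. The other two, chr4:135735441-135735666 and chr4:135736978-135737232, had values of 9.81 (percentile 12.0) and 11.24 (percentile 20.2). A pair of neighbouring internal starts of E2f2 lies between these last peaks, which were 1.14 kb before and 0.384 kb after the nearer of them. In non-B cells IR, chr4:135733627-135734138 overlapped the widest B cells peak, with a value of 10.19 and a percentile of 13.8. A further peak, chr4:135735885-135736181, 0.665 kb before the nearer internal start, had a value of 9.52 and a percentile of 11.3 and overlapped no B cells IR peak. All 5 intronic peaks at E2f2 lay below the middle of their list.

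E2f3 (chr13:29998444-30077537, minus strand), the longest of the 8 genes, carried 3 peaks in each IR list at the same 3 places. The highest was inside the gene, in an intron about 6 kb after the 5′ end. In B cells IR it was chr13:30070728-30071576, with a value of 141.84 and rank 554 of 24507 (percentile 97.7). In non-B cells IR it was chr13:30070727-30071454, with a value of 55.88 and rank 2244.5 of 21400 (percentile 89.5). It was the highest E2f peak of both lists. By its highest peak, E2f3 ranked 418 of the 11943 genes with a peak in B cells IR and 1804 of 11595 in non-B cells IR, above 96.5 and 84.3% of them. Its searched window of 99.1 kb was longer than 86.1% of those of protein-coding genes. A longer window can hold more peaks, and this ranking was not matched for window length.

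The sequence under this E2f3 peak is shown because it contains a p53 response element, here a 20-bp run of 2 decamers of the p53 consensus (3 purines, C, A or T at the next 2 bases, G, 3 pyrimidines) with no base between them, searched with the C and G of each decamer required and at most 3 mismatches elsewhere. The 200 bases chr13:30071044-30071243 (mm9, plus strand) hold the element in capitals, at chr13:30071134-30071153.
E2f3 intron peak: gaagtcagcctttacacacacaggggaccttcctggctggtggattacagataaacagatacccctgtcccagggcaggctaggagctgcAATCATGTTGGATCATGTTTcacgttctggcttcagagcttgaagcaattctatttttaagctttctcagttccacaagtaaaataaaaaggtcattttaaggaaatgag
The element had 3 mismatches and lay 8 bp from the midpoint of the B cells IR peak and 53 bp from that of the non-B cells IR peak.

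The other E2f3 peaks were of lower rank. The intronic peak about 15 kb after the 5′ end was chr13:30062315-30062546 in B cells IR, with a value of 15.14 (percentile 35.7), and chr13:30062328-30062520 in non-B cells IR, with a value of 9.27 (percentile 9.7). The peak before the start was chr13:30077891-30078460 in B cells IR, 0.639 kb upstream, with a value of 11.01 (percentile 17.8). It was chr13:30077933-30078270 in non-B cells IR, 0.565 kb upstream, with a value of 14.88 (percentile 35.0). The intronic peak thus ranked above the upstream one in B cells IR and below it in non-B cells IR, by 17.9 and 25.3 percentile points. Ranked by width in place of value, it was below in both lists. Outside the window, the nearest peak was 17.4 kb upstream of E2f3 in B cells IR (chr13:30094972-30095474, value 54.86, percentile 88.1) and 17.5 kb upstream in non-B cells IR (value 38.60, percentile 80.5), and no other protein-coding gene had a start nearer to it.

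Of the pocket-dependent repressors, E2f4 (chr8:107821563-107829269, plus strand) was the member with a p53 peak at its own 5′ end. In B cells IR this peak was chr8:107821333-107821614, centred 0.089 kb upstream, with a value of 18.46 and rank 12843 of 24507 (percentile 47.6). In non-B cells IR it was chr8:107821372-107821671, centred 0.041 kb upstream, with a value of 42.19 and rank 3638.5 of 21400 (percentile 83.0). It was the second highest E2f peak of non-B cells IR. The 250 bases before the start, chr8:107821313-107821562 (mm9, plus strand), are shown because both peaks cover most of them.
E2f4 upstream: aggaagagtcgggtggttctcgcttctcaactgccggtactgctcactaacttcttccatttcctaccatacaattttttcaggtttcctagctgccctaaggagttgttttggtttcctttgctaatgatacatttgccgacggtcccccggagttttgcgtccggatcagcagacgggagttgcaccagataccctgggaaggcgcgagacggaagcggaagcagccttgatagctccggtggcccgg
No p53 element with up to 3 mismatches, with or without a spacer of 1 to 15 bp, was found within 300 bp of the midpoint of either peak.

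A second E2f4 peak lay about 8 kb upstream, at the start of the neighbouring gene 4931428F04Rik. In B cells IR it was chr8:107813027-107813740, 714 bp with its midpoint in an untranslated exon of that gene 0.044 kb from its start, with a value of 40.44 and rank 4755 (percentile 80.6). In non-B cells IR it was chr8:107813049-107813610, 0.098 kb from the same start, with a value of 18.32 and rank 11384 (percentile 46.8). The order of the pair of peaks in the E2f4 window was thus opposite in the IR lists. The upstream peak stood 33.0 percentile points above the E2f4 start in B cells IR and 36.2 points below it in non-B cells IR. Ranked by width in place of value, the upstream peak was above in both lists. With a single library each, whether this order differed beyond the spread of replicates could not be tested.

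E2f5 (chr3:14578671-14606308, plus strand) had 1 peak per IR list, downstream of the gene and near the start of 1810022K09Rik. In B cells IR it was chr3:14611203-14611710, centred 0.236 kb before that start, with a value of 16.41 (percentile 41.1). In non-B cells IR it was chr3:14611200-14611517, centred 0.138 kb before it, with a value of 28.07 (percentile 69.0). Neither the 5′ end nor the body of E2f5 was under a listed peak, and the next peaks were about 20 kb downstream of the gene, with values of 22.89 in B cells IR against 24.14 in non-B cells IR.

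E2f6 (chr12:16817771-16833549, plus strand), E2f7 (chr10:110182495-110224440, plus strand) and E2f8 (chr7:56121799-56136966, minus strand) had no peak in the window in any list. The nearest peak to E2f6 was 44.2 kb downstream in B cells IR, with a value of 14.83, and 173 kb downstream in non-B cells IR, with a value of 17.32 at Pqlc3. For E2f8 it was an intergenic peak 27.2 kb upstream in B cells IR and 27.3 kb upstream in non-B cells IR, with values of 14.10 and 13.86. For E2f7 it was 124 kb downstream in both, with values of 37.79 and 22.96. E2f7, with the emptiest surroundings of the 3 in B cells IR, has a searched window of 61.9 kb. Among the 5595 protein-coding genes in the same class of window lengths (35.4 to 62.4 kb, which also holds E2f2, E2f5 and E2f6), 32.7% had no peak in either IR list. A list without a peak does not show that a site was unbound, since the depth of the libraries is unknown.

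A narrower promoter rule, from 5 kb before to 2 kb after any annotated start, left 4 of 8 E2f genes in B cells IR (50%, beside 39.5% of all protein-coding genes) and 3 of 8 in non-B cells IR (37.5%, beside 38.4%). The genes were E2f1, E2f2, E2f3 and E2f4 in B cells IR and the last 3 of these in non-B cells IR. E2f2 counted through its internal starts. No E2f gene had a promoter peak in B cells mock, non-B cells mock or the Trp53-/- list, where 1.96, 0.947 and 0.067% of all genes had one.

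Peaks that shared 1 bp or more were counted as common to the compartments. Of the 10 E2f peaks of B cells IR, 7 (70%) overlapped a peak of non-B cells IR, beside 73.6% of the whole list. Of the 8 E2f peaks of non-B cells IR, 7 (87.5%) overlapped a peak of B cells IR, beside 85.3% of the whole list. Under this rule, the 4 peaks listed in a single compartment were the E2f1 peak and 3 of the intronic E2f2 peaks. With midpoints within 500 bp as the rule, 8 of 10 and 8 of 8 were common. The E2f2 peaks chr4:135735441-135735666 (B cells IR) and chr4:135735885-135736181 (non-B cells IR) then paired.

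The percentiles of the 7 shared peaks differed between the lists by 8.2 to 35.4 points, and 4 were higher in B cells IR while 3 were higher in non-B cells IR. Higher in B cells IR were the E2f2 peak (by 32.8 points), the E2f3 peaks at 15 kb (26.0) and 6 kb (8.2) and the upstream E2f4 peak (33.8). Higher in non-B cells IR were the peaks at the E2f4 start (35.4), downstream of E2f5 (28.0) and upstream of E2f3 (17.2). Over the 17635 B cells IR peaks with a single overlapping partner, the absolute difference had a median of 10.8 points, an 80th centile of 25.5 and a 90th centile of 35.1. Of the 7 E2f pairs, 6 lay above that median, 5 above the 80th centile and 1, at the E2f4 start, above the 90th. The reference covered peaks of all ranks and was not matched to the ranks of the E2f peaks, so whether these differences are unusual was not tested. The value of a peak rests on reads of 1 library in each compartment, and the counting error behind these differences is unknown.

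**Figure D2:**
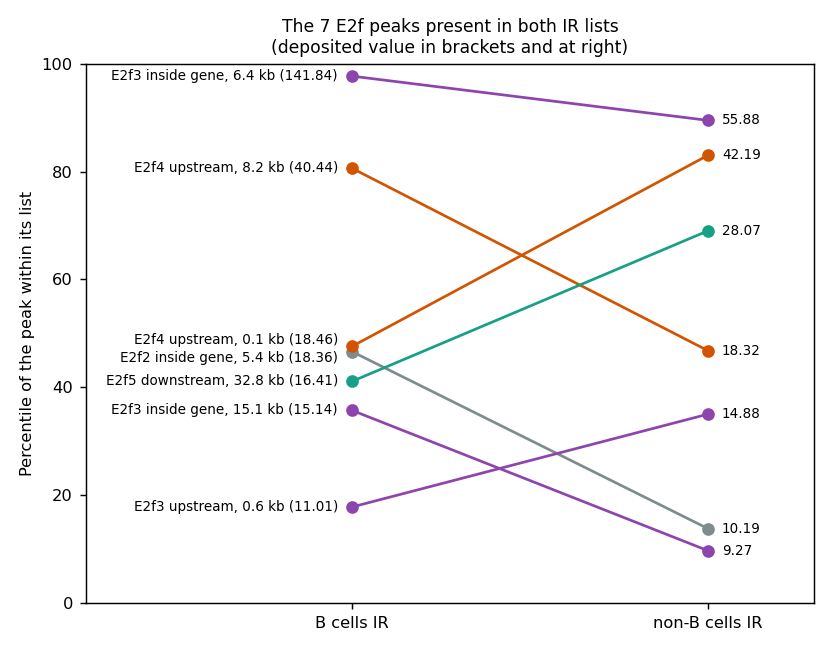
The 7 E2f peaks present in both IR lists. The y axis gives the percentile of each peak within its own list, a line joins the overlapping peaks, labels give the distance from the 5′ end of the gene in B cells IR, and the numbers are the deposited values, taken to be −log10 p. The lines of the E2f4 pair cross, from 80.6 to 46.8 and from 47.6 to 83.0, while the E2f3 peak inside the gene at 6.4 kb is the highest in both lists.

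The base composition of the E2f peaks varied with their distance from a start. The 10 peaks of both IR lists with the midpoint within 1 kb of an annotated start held 23.5 to 100 CpG dinucleotides per kb, and the 8 farther away held 13.7 to 22.1. A place with overlapping peaks in both lists counts once per list here, so the peaks are not all separate places. Among the 10, those at the starts of E2f4, 4931428F04Rik and 1810022K09Rik held 71.4 or more, while those upstream of E2f3 and near the internal starts of E2f2 held 47.3 or less. For all peaks, the median was 66.5 per kb in B cells IR against 69.3 in non-B cells IR where the midpoint was within 1 kb of a start, and 12.3 and 12.8 elsewhere. The highest E2f3 peak, inside the gene, had 17.7 CpG per kb in B cells IR against 19.2 in non-B cells IR.

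An unsplit p53 element lay within 300 bp of the midpoint of 2 of the 10 E2f peaks of B cells IR and 2 of the 8 of non-B cells IR, beside 15.3 and 15.4% of all peaks of these lists. The 2 places were the E2f3 intron at 6 kb and the upstream peak of E2f4, and the 8 and 6 other peaks had no such element. In B cells IR each place held the highest peak of its gene window. In non-B cells IR this was so at E2f3 alone. There the upstream E2f4 peak (percentile 46.8) ranked below the peak at the E2f4 start (83.0), which had no element. Decamer pairs with a spacer of 1 to 15 bp were near 5 of 10 and 4 of 8 E2f peaks, beside 41.2 and 40.6% of all peaks, so that such matches were frequent in any peak. A match is a description of the letters and does not show that p53 was bound through it.

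The E2f windows held 21 unsplit elements, of which 19 lay outside every listed peak. The windows contained between 0 (E2f5) and 14 (E2f6) elements per 100 kb, where the median window of all protein-coding genes had 4.7. Among elements with at most 3 mismatches, 2 of the 21 were under a peak in each IR list, beside 4.5% (B cells) and 3.91% (non-B cells) of such elements in the windows of all genes. None of the 4 E2f elements with at most 2 mismatches was under a peak in either list, beside 12.4 and 11% of such elements at all genes. The single E2f element with 1 mismatch was not under a peak, where 31.7 and 29.4% of elements with at most 1 mismatch were. This element lay in E2f3, 2.57 kb after the 5′ end, at chr13:30074955-30074974. The gene with the highest E2f peak thus held a closer match to the consensus outside that peak.

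The elements are shown with 5 bases on either side (mm9, plus strand, element in capitals) to set the match under the upstream E2f4 peak (chr8:107813456-107813475, 3 mismatches) beside the 4 closer matches that no listed peak covered, in E2f3, E2f2 (chr4:135755732-135755751, 2 mismatches, 27.4 kb after the 5′ end), E2f6 (chr12:16822204-16822223, 2 mismatches, 4.44 kb) and E2f7 (chr10:110233073-110233092, 2 mismatches, 50.6 kb).
E2f4 upstream, under a peak: gtaggGGGCGTGCTTAAGCTCGCTGtgggc
E2f3, not under a peak: cggtcAAGCATGTTTAATCAAGTCCgtaaa
E2f2, not under a peak: gatccAGGCAAGGCCATGCATGCTTccttt
E2f6, not under a peak: gtcctAGACTGGCCTAAACTGGCTTtgcgg
E2f7, not under a peak: ctttgGTACATGCTTTAGCATGTTTgaacc
The E2f4 element lay 82 bp from the midpoint of the B cells IR peak and 136 bp from that of the non-B cells IR peak.

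The closest decamer pairs with a spacer had 2 mismatches and are shown with the spacer in lower case between the decamers. The E2f1 pair (chr2:154400389-154400410, spacer of 2 bp) began under the E2f1 peak of B cells IR and ran past its end at 154400405. The E2f3 pair (chr13:30078288-30078310, spacer of 3 bp) lay under the upstream E2f3 peak of B cells IR. It was outside the upstream peak of non-B cells IR, which ends at 30078270.
E2f1 upstream: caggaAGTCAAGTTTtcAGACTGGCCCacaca
E2f3 upstream: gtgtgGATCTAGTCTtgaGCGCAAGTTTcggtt
Both are intergenic. The E2f1 pair lay 191 bp from the midpoint of its peak, and the E2f3 pair 122 bp in B cells IR and 196 bp in non-B cells IR.

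E2F genes are known to be targets of E2F proteins, and the promoters (250 bases before to 50 after the 5′ end) were searched on both strands for TTTCCCGC, TTTCGCGC, TTTGCCGC and TTTGGCGC, the forms of the E2F consensus. A match was found in 3 of the 8 E2f promoters, beside 2.72% of all protein-coding promoters. E2f1 had 2 matches, which did not overlap, beginning 4 and 17 bases after the 5′ end. E2f2 had 1, beginning 81 bases before the 5′ end, and E2f7 had 1, beginning 198 bases before it. The stretches with these matches are printed in the direction of the gene with the motif in capitals, from chr2:154395600-154395629 (minus strand), chr4:135728217-135728246 and chr10:110182286-110182315 (plus strand).
E2f1 promoter: ctttcGCGGCAAAaaggaTTTGGCGCgtaa
E2f2 promoter: gcggcatatagTTTGGCGCtaaaaaaaaaa
E2f7 promoter: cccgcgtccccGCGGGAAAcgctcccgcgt
None of these 3 promoter stretches was under a p53 peak. Under the wider promoter rule above, E2f1 and E2f2 had peaks in B cells IR, and E2f2 in non-B cells IR too. The E2f4 stretch, the one of the 8 under a peak, held none of these motifs. The share of all promoter stretches of this length under a peak was not counted, so no contrast is drawn from 1 promoter. All 8 promoters had a ratio of observed to expected CpG of 0.86 to 1.15, where the median of all promoters was 0.53.

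The other genes of the pathway were taken from a list of 46 by role. In B cells IR, 36 of the 46 (78.3%) had a peak in the gene body or 10 kb around it and 34 (73.9%) in the promoter. In non-B cells IR, 36 (78.3%) and 31 (67.4%) did. These shares were higher than those of all protein-coding genes given above (53.4 and 39.5%, 51.8 and 38.4%), while those of the E2f genes lay near them, and the difference was not tested. In B cells mock 8 of the 46 (17.4%) had a peak in the window, beside 4.45% of all genes, in non-B cells mock 2 (4.35%), beside 2.27%, and in the Trp53-/- list none, beside 0.125%. The promoter peaks of the mock lists were at Cdkn1a alone.

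Of the 2 dimer partners of E2F, 1 had a window peak in each IR list (50%), beside 53.4 and 51.8% of all genes. Tfdp1 had none, and Tfdp2 had a promoter peak in B cells IR with a value of 8.33 (percentile 5.7) and none in non-B cells IR. All 3 pocket proteins, which bind E2Fs in resting cells, had a promoter peak in both IR lists. The highest of them in B cells IR, at Rbl2, had a value of 43.60 (percentile 82.7) and one of 42.39 (percentile 83.2) in non-B cells IR. Of the MuvB core, which joins Rbl2 and E2f4 in the DREAM repressor complex, 4 of 5 members had a promoter peak in each IR list, led by Lin37 with values of 37.79 (percentile 78.6) and 37.89 (percentile 79.9). Of the 3 partners of E2f6, all had a promoter peak in B cells IR against 2 in non-B cells IR. Mga, a scaffold of that complex, had the highest, with values of 31.61 (percentile 72.5) and 39.47 (percentile 81.2). Most pocket protein, MuvB and E2f6 partner genes thus had p53 promoter peaks in both compartments, although E2f6 itself had none. Among all protein-coding genes, 39.5% had a promoter peak in the irradiated B cell list, against 38.4% in the non-B one. These roles hold 3 to 5 genes each, and whether their shares differ from those of all genes was not tested.

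Among the 8 G1 cyclins and kinases, which phosphorylate pocket proteins, 7 had a peak in the window in each IR list (87.5%). The shares of all genes were 53.4 and 51.8%. A promoter peak was found for 6 in B cells IR (75%, beside 39.5% of all genes) and for 3 in non-B cells IR (37.5%, beside 38.4%). The 3 that had a promoter peak in B cells IR alone had weak ones, at percentiles of 3.0 (Ccnd2), 5.7 (Ccne2) and 19.1 (Cdk6). The highest, at the cyclin gene Ccnd3, had values of 29.77 (percentile 70.0) and 23.51 (percentile 60.2). Of the 7 CDK inhibitor genes, 3 (42.9%) and 4 (57.1%) had a promoter peak, beside 39.5 and 38.4% of all genes, and that of Cdkn1a was the extreme, with a value of 318.37 and rank 7 in B cells IR and a value of 620.98 and rank 1 in non-B cells IR. Of the 18 replication genes that are textbook E2F targets, 14 had a promoter peak in B cells IR (77.8%, beside 39.5% of all genes). In non-B cells IR 15 did (83.3%, beside 38.4%). The highest was at Rrm2, a subunit of ribonucleotide reductase, with a value of 100.78 and rank 1039 (percentile 95.8) in B cells IR and a value of 59.11 and rank 2063 (percentile 90.4) in non-B cells IR. An unsplit element with up to 3 mismatches was within 300 bp of the midpoint of the Cdkn1a and Rrm2 peaks in both lists and of the Tfdp2 peak, and of none of the other promoter peaks whose values are given here. Tfdp1, Lin9, Ccnd1, Cdkn1c, Cdkn2a, Cdkn2d, Tyms and Pola1 had no peak in either IR list. The highest E2f3 peak ranked above that of Rrm2 in B cells IR and below it in non-B cells IR.

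**Figure D3:**
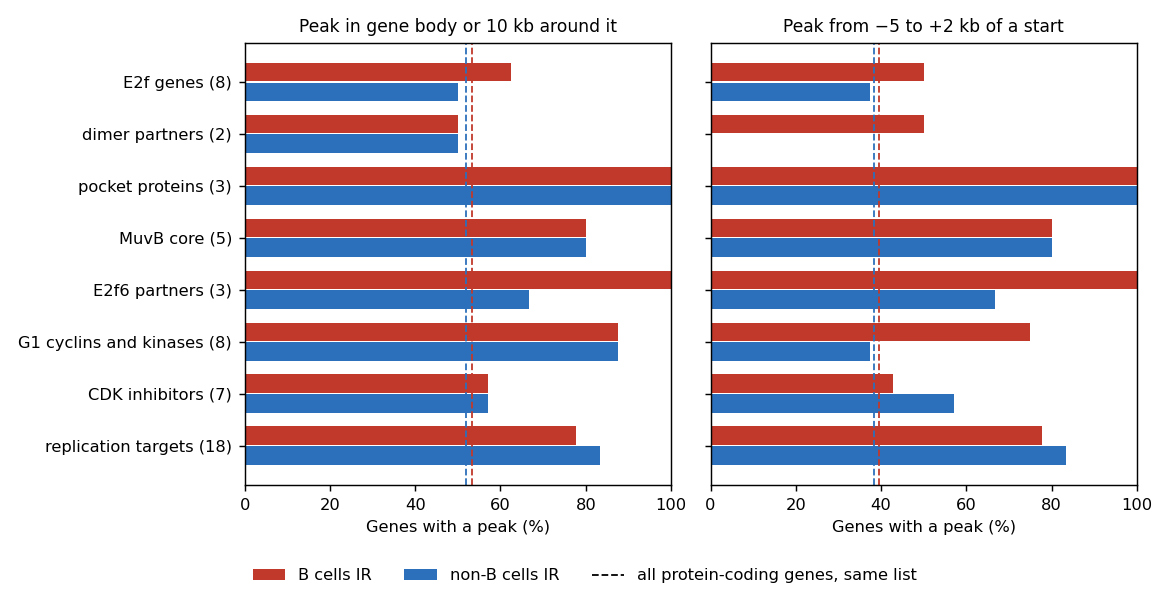
Share of genes with a p53 peak, by role in the E2F pathway. Bars give the percent of the genes of a role (number in brackets) with a peak in the gene body and 10 kb around it (left) or from 5 kb before to 2 kb after a start (right) in each of the wild-type IR lists, and dashed lines give all protein-coding genes in the same list. The E2f genes, at 62.5 and 50% on the left, lie near the dashed lines at 53.4 and 51.8%, and the pocket proteins are at 100%.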

How the data were processed

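p53 ChIP-seq was performed by the study on splenic B cells, non-B cells and total spleen, with 1 library per group. The study describes masking of low-quality bases, alignment to mm9 and peak calling with MACS, 1 list per library. The submitters' processing notes name BWA 0.6.2 and SAMtools. The 5 deposited lists give a position and 1 value per peak, taken here to be a −log10 p-value computed by the authors. This unit was inferred. In the 4 wild-type lists, 25.2 to 35.1% of the values below 40 equalled, to 2 decimals, −log10 of a Poisson probability at 1 fitted background mean, which leaves most values unmatched, and the Trp53-/- list was not checked. The lowest values were 5.01 to 5.85, below the 8 to which the calling limit in the methods would correspond in this unit. Whether that limit was applied to another column, or this column holds another quantity, is not known, and ranks within a list do not depend on it. Read totals are not in the lists, so the depth and its precision are unknown. The input library was not used here as a list.

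Genes and starts came from GENCODE vM1 on NCBIM37, the same assembly as mm9, and 0 peaks ended beyond its chromosomes. Coordinates count from 1. Distances run from the midpoint of a peak. Those given from an E2f gene to peaks outside its window run instead from the nearer peak edge to the gene body. A peak was assigned to a gene with 1 bp in its window, whatever gene was nearer. The members, the 46 pathway genes (chosen from general knowledge of the pathway) and the tests were chosen with earlier results of these data known. The genes named were all E2f genes, the nearest start of each peak in their windows, and, per role, the gene with the highest promoter peak in B cells IR. Genes nearest to peaks outside the windows, the pathway genes without a peak in either IR list, and Ccnd2, Ccne2, Cdk6, Ccne1 and Cdk4 were named after their values were seen. Other windows, minimum values, overlap rules, ranking by width and element rules were tried as alternatives. The 5 computing steps were tested on simulated data and 5 returned the known answer. Python 3.11.15, numpy 2.4.6, pandas 2.3.3 and matplotlib 3.10.9 were used.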

Additional observations from a re-analysis of the deposited data

Results flagged for a closer look

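The order of peaks within a gene window was opposite in the IR lists at 2 genes. These, E2f4 and E2f3, were the E2f genes with more than 1 peak shared by overlap. At E2f4, the peak 8 kb upstream minus the peak at the start was 33.0 percentile points in B cells IR against -36.2 in non-B cells IR. At E2f3, the intronic peak at 15 kb minus the peak before the start was 17.9 points in B cells IR against -25.3 in non-B cells IR. The highest E2f3 peak stood above both of these E2f3 peaks in each list. The gaps were 62.0 and 79.9 points in B cells IR and 79.8 and 54.5 in non-B cells IR. How often shared peaks of other genes changed order between the lists was not counted. Each compartment had 1 library, and the differences were not tested. Ranked by width instead, the E2f4 peak 8 kb upstream lay above that at the start in both lists (89.8 against 35.9 in B cells IR, 85.1 against 45.9 in non-B cells IR), and the E2f3 peak at 15 kb lay below the one before the start in both (21.6 against 81.9, and 10.1 against 55.5).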

How the results depend on the processing

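Of 103 values recomputed under other settings, 93 stayed within 1.5 times the count or within the 95% interval of the share, and 10 moved. All 10 were from the wild-type IR lists. The 93 include counts of the mock and Trp53-/- lists that were 0 and could not change under a narrower setting, so they say little about stability. With the gene body alone, 3 E2f genes and 6 peaks remained to be counted in B cells IR and 5 peaks in non-B cells IR, which by construction leaves out peaks before a start or downstream. Midpoints within 500 bp in place of overlap gave a share of 100% for non-B cells IR and of 80% for B cells IR. With at most 2 mismatches, 0 E2f peaks of B cells IR and 0 of non-B cells IR held an unsplit element. With at most 4 it was 4 in B cells IR, within 100 bp of the midpoint 1 in non-B cells IR, and with a spacer 5 and 4. The counts of 0 in the mock and Trp53-/- lists were 0 under each setting, of which only the 25 kb extension could have raised them. Requiring the E2f start to be the nearest gave 4 genes and 8 peaks in B cells IR and 3 genes and 6 peaks in non-B cells IR, without E2f5 and without the upstream E2f4 peak. Ranking by width moved 11 of 18 percentiles by over 10 points. No paired analysis was possible because no group held more than 1 sample.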
